A study of Homo sapiens with 6 samples.

Results

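WNT ligands are lipid-modified proteins that signal through Frizzled receptors with the co-receptors LRP5 and LRP6, and in the canonical branch they stabilize β-catenin, which acts on genes bound by the LEF1 and TCF factors. Cells restrain the pathway from outside with secreted antagonists and from inside with feedback genes. Secreted antagonists act in different ways. NOTUM removes the lipid from WNT ligands, DKK1 and DKK2 engage the co-receptors, and the SFRP proteins, FRZB and WIF1 bind the ligands. AXIN2, a scaffold of the β-catenin destruction complex, and LEF1 are widely used as readouts because canonical WNT signaling raises them in many cells. In differentiating hESCs, WNT signaling takes part in mesoderm formation and in the choice between blood programs.

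The 10 genes described here are NOTUM, DKK1, DKK2, DKK3, SFRP1, SFRP2, FRZB, WIF1, AXIN2 and LEF1. They were taken by symbol from a table of 58364 gene rows, in which each of the 10 had 1 row. Of these, 9 had a mean of at least 0.5 FPKM (fragments per kilobase of transcript, scaled by mapped fragments) and entered the tests, with 15895 genes tested in all. WIF1 was listed at 0 in all 6 libraries and was not tested.

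The libraries are bulk RNA-seq of H1, an established human embryonic stem cell line, at day 8 of hematopoietic differentiation. There were 2 libraries of wild-type (WT) cells and 4 of MSX2-/- cells, in which CRISPR-Cas9 delivered by lentivirus had cut exon 2 of MSX2, a homeobox transcription factor. The 4 comprise replicates 1 and 2 of each of 2 clones, named 1# and 2#. Each clone is 1 edited line, so a trait of 1 clone can be seen only by comparing the pair. Both clones also went through lentiviral infection, puromycin selection and growth from single cells, which the study's methods do not describe for WT. An effect of that shared handling and an effect of the deletion cannot be told apart here. The labels give CD31+ cells (cells carrying the surface protein of PECAM1) for the MSX2-/- libraries and leave the selection of the WT libraries unsaid, while the text of the study names CD31+ cells for both genotypes. The labels' growth protocol also mentions HAND1 overexpression, which belongs to neither genotype label. The study speaks of independent experiments for its analyses in general, and no source used here ties that to these replicates, so p-values measure only the spread between these libraries, which may be technical.

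Libraries differed by replicate number as well as by genotype, so the values of each member below are given by replicate number too. Some other genes are given only as ranges, sums or differences. Replicate 1 and replicate 2 carry different set letters in the labels, and the difference between them was correlated across genes between WT and clone 1# (r = 0.51), WT and clone 2# (r = 0.54) and both clones (r = 0.64). Along principal component 1 (44.1% of variance) the replicate numbers lay apart, and along component 2 (27.7%) WT lay apart from MSX2-/-. Total FPKM ran from 555286 to 617120 per library, and the relative depth, read from genes of low value, ran from 1 to 1.18 times that of WT replicate 1. The number of reads is not in the table, so the depth itself is unknown. MSX2 transcript, the targeted gene, was 3.64 and 1.44 FPKM in WT replicates 1 and 2, 18.0 and 5.62 in clone 1#, and 31.8 and 6.69 in clone 2#. All 4 MSX2-/- libraries were above both WT libraries, and the total transcript therefore did not check the labels, since a frameshift can leave the transcript in place.

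Some markers of cell types moved with genotype too. PECAM1 was 258 and 218 FPKM in WT and 186 to 230 in MSX2-/-, so transcript of the CD31 gene was present in every library. As CD31 is the protein used for selection, this value cannot show endothelial identity. The summed level of 7 endothelial genes was 1737 and 1929 FPKM in WT and 1213 to 1509 in MSX2-/-, with 1 gene, CDH5, lower without the replicate block and 4 lower with it. The 5 blood genes reported here summed to 50.3 and 71.1 FPKM in WT and 99.9 to 139.8 in MSX2-/-. Of them, 2 were higher without the block (KLF1 and GATA1) and 3 with it, and PTPRC was at or below 0.115 FPKM everywhere. The 10 mesenchymal genes summed to 278 and 312 FPKM in WT and 421 to 501 in MSX2-/-. Without COL1A1 (27.7 and 55.9 FPKM in WT, 193 to 206 in MSX2-/-) the summed levels of the genotypes overlapped. COL1A1 was the 1 gene of this list higher without the block, and 3 were higher with it. The other abundant collagens, COL1A2 (log2 difference -0.07) and COL3A1 (-0.54), were not called, and DCN was below 1 FPKM in all 6 libraries. The 5 epithelial genes summed to 146 and 124 FPKM in WT and 200.1 to 466 in MSX2-/-, and all 5 were higher with the block and lower in replicate 2. Endoderm genes ranged widely, with the 6 summing to 39.9 and 70.5 FPKM in WT and 12.9 to 226 in MSX2-/-, and none was called. The 5 cardiac genes summed to 32.1 and 42.4 FPKM in WT and 54.8 to 89.4 in MSX2-/-, with NKX2-5 and MYL7 higher with the block (adjusted p = 0.00407 and 0.0195), while TNNT2 was at or below 1.21 FPKM and MYH6 at or below 0.408. Of 5 pluripotency genes, LIN28A was higher with the block (adjusted p = 0.0143). DPPA4 was 22.6 to 31.2 FPKM over the libraries and POU5F1 0.869 to 5.33, while SOX2 and NANOG were at or below 0.373 FPKM. No epithelial, cardiac or pluripotency gene was called without the block. Over all tested genes, 0.963% were called higher and 0.321% lower without the block, and 6.11% and 3.74% with it. In replicate 2, 18.9% of all tested genes were lower. In bulk libraries, fewer cells of a type and less RNA per cell cannot be told apart, and the part of these cell types in the values below was not tested.

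The level of the members spanned a wide range, and FPKM is scaled to transcript length, so the genes can be ordered. By median over the 6 libraries, SFRP1 stood first with 35.2 FPKM, followed by DKK3 with 17.6, LEF1 with 13.3 and FRZB with 10.5. AXIN2 (4.07), NOTUM (3.86), DKK2 (3.78) and SFRP2 (2.24) came next. DKK1 had a median of 0.793 FPKM, and WIF1 was listed at 0. SFRP1 was above DKK3 in 6 of 6 libraries, and FRZB was above AXIN2 in 6 of 6. DKK3 was above LEF1 in 3 of 6 libraries, AXIN2 above NOTUM in 3 of 6 and NOTUM above DKK2 in 3 of 6, so the order among those neighbours was not resolved. As 4 of the 6 libraries are MSX2-/-, this order is mainly theirs. In WT, NOTUM (0.633 and 1.14 FPKM) was below SFRP2 (2.15 and 2.12), and in WT replicate 1 FRZB (31.3) was above SFRP1 (28.6).

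**Figure D1:**
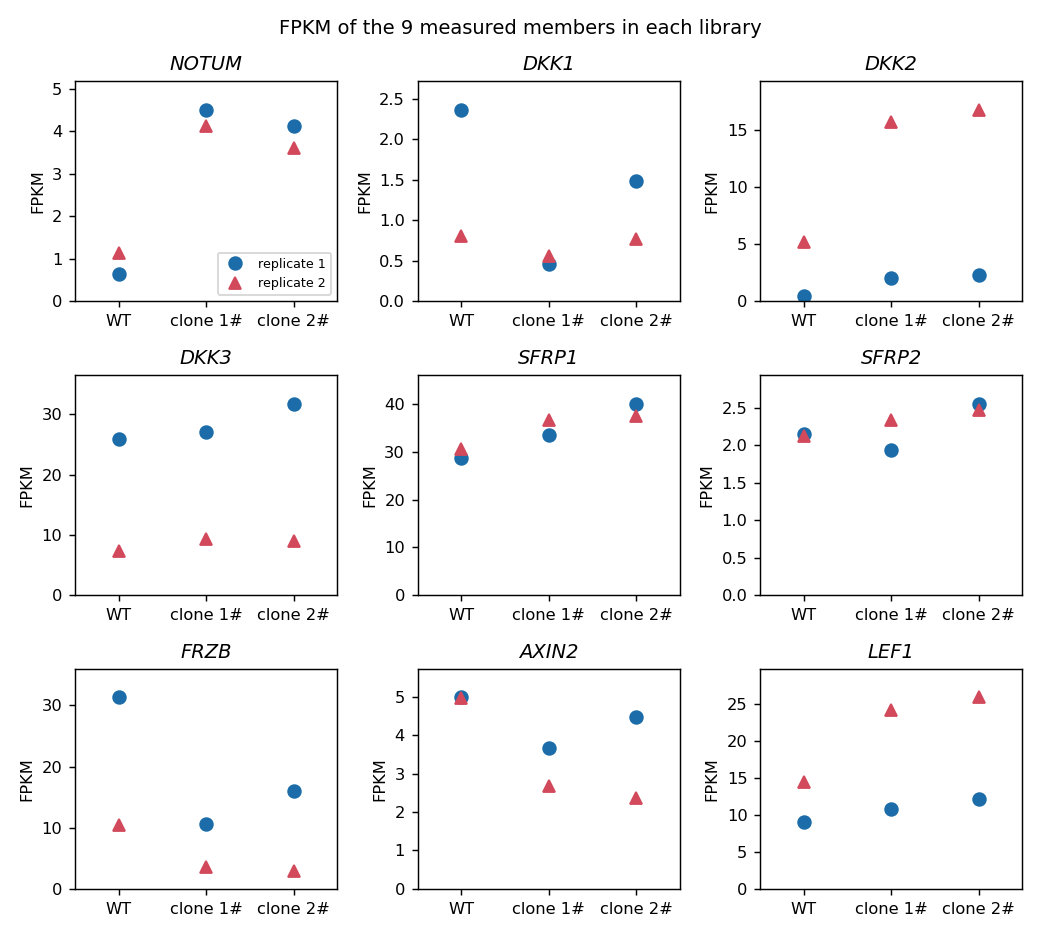
FPKM (vertical axis, from 0) of the 9 measured members in WT, clone 1# and clone 2#, with circles for replicate 1 and triangles for replicate 2, each point 1 library. The NOTUM points of WT lie below all those of MSX2-/-, the DKK3 points part by replicate number, and in DKK2 and FRZB the genotypes overlap and part within each replicate number.

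Promoter sequence is shown for 3 members: DKK1 and LEF1, which WNT signaling is known to regulate, and FRZB, which was lower in MSX2-/- with the replicate block. Each line gives the 100 bases before the RefSeq start on the gene's own strand (build GRCh38.p14), 5′ to 3′, with matched motif words in capitals. The DKK1 piece is chr10:52314181-52314280 on the plus strand, the FRZB piece chr2:182866638-182866737 on the minus strand and the LEF1 piece chr4:108166302-108166401 on the minus strand.
DKK1: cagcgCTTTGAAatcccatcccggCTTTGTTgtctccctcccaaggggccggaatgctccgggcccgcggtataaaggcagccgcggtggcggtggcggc
FRZB: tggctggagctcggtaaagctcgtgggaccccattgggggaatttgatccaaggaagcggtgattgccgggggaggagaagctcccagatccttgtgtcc
LEF1: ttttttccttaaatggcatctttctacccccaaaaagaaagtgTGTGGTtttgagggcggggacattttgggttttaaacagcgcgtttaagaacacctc

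Short words were searched on both strands of 250 bases before to 50 after the start. The forms used for the TCF/LEF factors were CTTTGAA along with the form CTTTGAT and, where the next base differs, the form CTTTGTA along with the form CTTTGTT. The word used for MSX factors was TAATTG, that for GATA factors was AGATAA, and those for RUNX factors were TGTGGT along with the form TGCGGT. DKK1 held a pair of TCF/LEF words, which 13.8% of 35116 promoters hold at least once, and 1 RUNX word after its start, from 37 to 42. LEF1 held 1 RUNX word before its start, and 19.6% of promoters hold such a word. FRZB held no word in the 100 bases shown and 1 GATA word further upstream, from -215 to -210, a word found in 10.3% of promoters. The MSX word, present in 7.38% of promoters, was in none of the 5 member windows available at RefSeq starts (DKK1, FRZB, LEF1, SFRP2 and WIF1). The FRZB, LEF1 and WIF1 windows also lie inside their genes as GENCODE places them. For these, a place before the start is before the RefSeq start and not outside the gene. A match describes letters and no binding was measured.

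NOTUM, the extracellular deacylase of WNT ligands, was higher in MSX2-/- and was the 1 member called both without and with the replicate block. It lies on chromosome 17 from 81952507 to 81961840, minus strand (GENCODE 29, GRCh38, as for all member positions below). It was 0.633 and 1.14 FPKM in WT replicates 1 and 2, 4.50 and 4.12 in clone 1#, and 4.11 and 3.61 in clone 2#. All 4 MSX2-/- libraries were above both WT libraries, and the 4 lay within a narrow range. Within a replicate number, the ratio to WT was 7.11 for clone 1# and 6.49 for clone 2# in replicate 1, and 3.61 and 3.16 in replicate 2. On the log2(FPKM + 1) scale, which understates the change of low genes, NOTUM rose by 1.44 (SE 0.19, 95% interval 0.99 to 1.89, limma adjusted p = 0.0274). When replicate number was added to the fit as a block, the adjusted p was 0.00545.

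The call of NOTUM without the block did not hold in every fit. With all 6 libraries kept, it was lost with no filter (adjusted p = 0.0761). It was also lost with WT and the clones fitted as 3 groups (adjusted p = 0.102). Without the block, the adjusted p ran from 0.0637 to 0.159 when any 1 of the 6 libraries was left out, with a log2 difference from 1.24 (without WT replicate 1) to 1.64 (without WT replicate 2). With the block it passed in all 6 of these fits, with adjusted p from 0.0175 to 0.0373. The 4 against 2 design is small, and an exact permutation test of it could not give a two-sided p under 0.0667. Even that floor treats the 6 libraries as interchangeable, although they are replicates of WT and of the clones, paired by replicate number. The difference between replicate numbers was 0.05 for NOTUM (SE 0.15, adjusted p = 0.838), and the genotype difference was not shown to differ between them (interaction -0.52, adjusted p = 0.490).

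DKK2, a ligand of LRP5 and LRP6 that acts as an antagonist or a weak agonist depending on the cell, differed by genotype and by replicate number. It spans 106921802 to 107283806 on the minus strand of chromosome 4. It was 0.463 and 5.24 FPKM in WT, 2.04 and 15.7 in clone 1#, and 2.33 and 16.8 in clone 2#, for replicates 1 and 2 in turn. The groups overlapped, because WT replicate 2 was above both MSX2-/- libraries of replicate 1. Within a replicate number every MSX2-/- library was above its WT library, by 4.41 and 5.03 times in replicate 1 and 3.0 and 3.21 times in replicate 2. The log2 difference was 1.29, with SE 0.97 and adjusted p = 0.727 without the block. With the block the same difference had SE 0.13 and passed (95% interval 0.98 to 1.61, adjusted p = 0.00403). It also passed with the block in all 6 fits that left out 1 library, with adjusted p from 0.0143 to 0.0312.

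FRZB, which binds WNT ligands through a Frizzled-like domain, moved the other way. It lies on chromosome 2 from 182833275 to 182867162, minus strand. It was 31.3 and 10.4 FPKM in WT, 10.6 and 3.61 in clone 1#, and 16.1 and 2.91 in clone 2#. The groups overlapped across replicate numbers, and within each number both clones were below WT, at 0.339 and 0.513 of its level in replicate 1 and 0.346 and 0.279 in replicate 2. The log2 difference was -1.31, with SE 0.71 and adjusted p = 0.566 without the block. With the block SE was 0.18 and FRZB fell (95% interval -1.75 to -0.88, adjusted p = 0.00919). The blocked call was lost with no filter (adjusted p = 0.0629). That call rested on both WT libraries, since leaving out WT replicate 1 gave a blocked adjusted p of 0.0674 and leaving out WT replicate 2 gave 0.0856.

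The other soluble antagonists gave smaller or less certain differences. SFRP1, on chromosome 8 and the member with the highest median, was 28.6 and 30.6 FPKM in WT, 33.7 and 36.7 in clone 1#, and 40.2 and 37.6 in clone 2#. The groups did not overlap, yet the log2 difference of 0.31 (95% interval 0.02 to 0.60) did not pass after adjustment (adjusted p = 0.374, and 0.0881 with the block). SFRP2, its paralog on chromosome 4 from 153780592 to 153789120, was 2.15 and 2.12 FPKM in WT, 1.93 and 2.33 in clone 1#, and 2.55 and 2.47 in clone 2#. Within replicate numbers it was above WT in 3 comparisons and below in 1, that of clone 1# replicate 1. The log2 difference of SFRP2 was 0.08, with a 95% interval from -0.32 to 0.48 and an adjusted p of 0.943. Changes within that interval were not excluded.

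DKK1 and DKK3 are the remaining Dickkopf genes, DKK1 a classic LRP5/6 inhibitor and DKK3 a divergent member of the family. DKK1 lies on chromosome 10 from 52314296 to 52318042, plus strand, and an exon of the antisense gene PRKG1-AS1 overlaps its exons, so its value is uncertain where strand was not used in counting. DKK1 was 2.36 and 0.811 FPKM in WT, 0.462 and 0.559 in clone 1#, and 1.48 and 0.775 in clone 2#. Each MSX2-/- library was below the WT library of its number, from 0.195 to 0.956 of its level, with the clones 1# and 2# unlike each other in replicate 1. The log2 difference of -0.47 (95% interval -1.26 to 0.32) did not pass (adjusted p = 0.698, and 0.334 with the block). With the block it was -0.12 without WT replicate 1, -0.26 without clone 1# replicate 1 and -0.82 without WT replicate 2.

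DKK3 followed the replicate number. It lies on chromosome 11 from 11963106 to 12009769, minus strand, and was 25.9 and 7.39 FPKM in WT, 27.1 and 9.26 in clone 1#, and 31.8 and 9.02 in clone 2#. Replicate 2 was at 0.284 to 0.341 of replicate 1 in all 3 lines, and the genotypes overlapped. The genotype difference of 0.22 on the log2 scale had adjusted p = 0.964 without the block and 0.208 with it, and turned to -0.62 without WT replicate 2 in the fit without the block. With the block it stayed between 0.17 and 0.28 when 1 library was left out. WIF1, a WNT-binding antagonist on chromosome 12 from 65050626 to 65121566, gave no value above 0 in any library.

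AXIN2 and LEF1, the feedback and readout genes, differed from WT in opposite directions and neither passed. AXIN2 lies on chromosome 17 from 65528563 to 65561647, minus strand, and shares exon sequence on that strand with AC004805.1, so reads could be split between them. It was 4.99 and 4.97 FPKM in WT, 3.67 and 2.67 in clone 1#, and 4.46 and 2.36 in clone 2#. All 4 MSX2-/- libraries were below both WT libraries, at 0.737 and 0.895 of WT in replicate 1 and 0.536 and 0.474 in replicate 2. The log2 difference was -0.51 (95% interval -1.07 to 0.06, adjusted p = 0.492, and 0.113 with the block). Leaving out WT replicate 1 moved the blocked difference to -0.77, and leaving out WT replicate 2 moved it to -0.24. The genotype difference was not shown to differ between the replicate numbers (interaction -0.52, adjusted p = 0.494).

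LEF1, a transcription factor that partners β-catenin, lies on chromosome 4 from 108047545 to 108168956, minus strand, and its exons overlap the opposite-strand gene LEF1-AS1. It was 9.13 and 14.5 FPKM in WT, 10.8 and 24.2 in clone 1#, and 12.1 and 26.0 in clone 2#. WT replicate 2 was above both MSX2-/- libraries of replicate 1, while each MSX2-/- library was above its own WT library, by 1.19 to 1.79 times. The log2 difference of 0.52 had adjusted p = 0.739 without the block and 0.0541 with it. With the block it passed when WT replicate 1 was left out (adjusted p = 0.0464) and had an adjusted p of up to 0.232 in the other fits without 1 library, with a difference from 0.30 (without WT replicate 2) to 0.75 (without WT replicate 1).

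**Figure D2:**
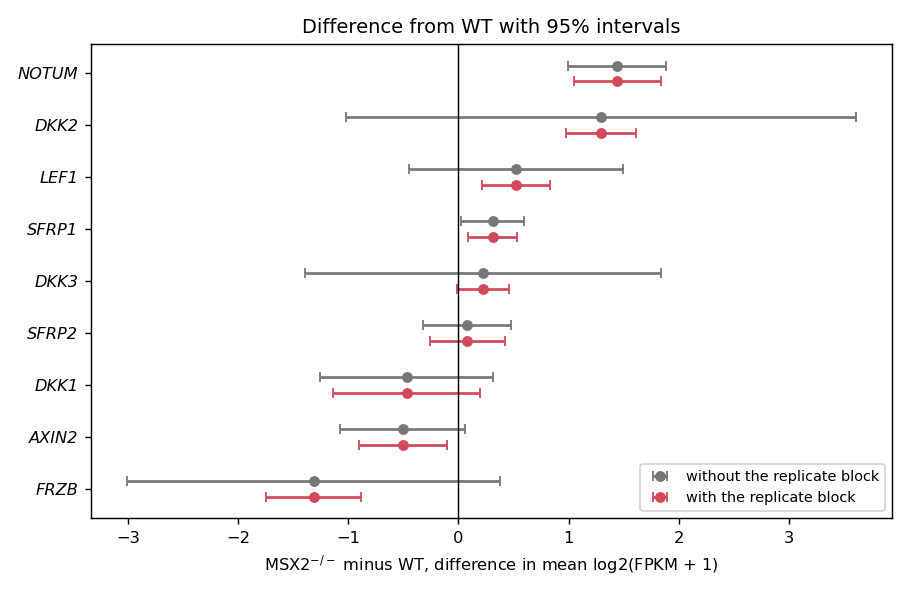
Difference of MSX2-/- from WT in mean log2(FPKM + 1) for the 9 measured members, with 95% intervals from limma without (grey) and with (red) the replicate block. The interval of NOTUM, from 0.99 to 1.89, is clear of 0 in both fits, as is that of SFRP1, and those of DKK2, FRZB, AXIN2 and LEF1 are clear of 0 in the fit with the block alone. An interval clear of 0 is not adjusted for the number of genes.

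Counted over the members, 1 of the 9 tested was higher and 0 were lower without the block, against 0.963% of all tested genes called higher and 0.321% called lower. With the block, 2 were higher and 1 was lower, against 6.11% and 3.74% of all tested genes. The fit called 4247 genes at an unadjusted p under 0.05 with the block and 1873 without it. In 2 members, NOTUM and SFRP1, all 4 MSX2-/- libraries were above both WT libraries, as in 12.1% of all tested genes, and in 1, AXIN2, all 4 were below, as in 9.19%. Within replicate numbers, 5 members (NOTUM, DKK2, DKK3, SFRP1 and LEF1) were above their WT library in 4 of 4 comparisons and 3 (DKK1, FRZB and AXIN2) below, against 23.6% and 21.4% of all tested genes. The median log2 difference of the 9 members was 0.22, beside 0.01 over all tested genes. The members were chosen with earlier results of these data known, so these counts and shares are a description and not a test.

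Both clones gave the same calls in the fits with 3 groups and the replicate block. In clone 1#, NOTUM rose by 1.5 (adjusted p = 0.0276) and DKK2 by 1.24 (adjusted p = 0.0276), and FRZB fell by 1.39 on the log2 scale (adjusted p = 0.0375). In clone 2#, NOTUM rose by 1.38 (adjusted p = 0.0334) and DKK2 by 1.35 (adjusted p = 0.0225), and FRZB fell by 1.24 (adjusted p = 0.0464). The clones share the WT libraries, and the background of calls was 3.46% of genes for clone 1# and 3.71% for clone 2#. Without the block no member was called in either clone. Between clones, limma called 0 genes with or without the block, with 225 and 530 at an unadjusted p under 0.05.

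Replicate number gave a difference of its own in 4 members. With genotype in the fit, DKK2 (2.32, SE 0.12, adjusted p = 0.000683) and LEF1 (0.91, SE 0.12, adjusted p = 0.00359) were higher in replicate 2. DKK3 (-1.62, SE 0.09, adjusted p = 0.000734) and FRZB (-1.65, SE 0.17, adjusted p = 0.00188) were lower. These are 2 and 2 of the 9 members tested, beside 15.6% of all tested genes higher and 18.9% lower in replicate 2. DKK2 was 11.3 times as high in replicate 2 as in replicate 1 of WT, 7.69 times in clone 1# and 7.21 times in clone 2#. FRZB in replicate 2 was at 0.333, 0.340 and 0.181 of replicate 1 in those lines. The replicate difference of NOTUM (0.05), SFRP1 (0.04) and SFRP2 (0.05) was close to 0 on the log2 scale, and none passed.

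**Figure D3:**
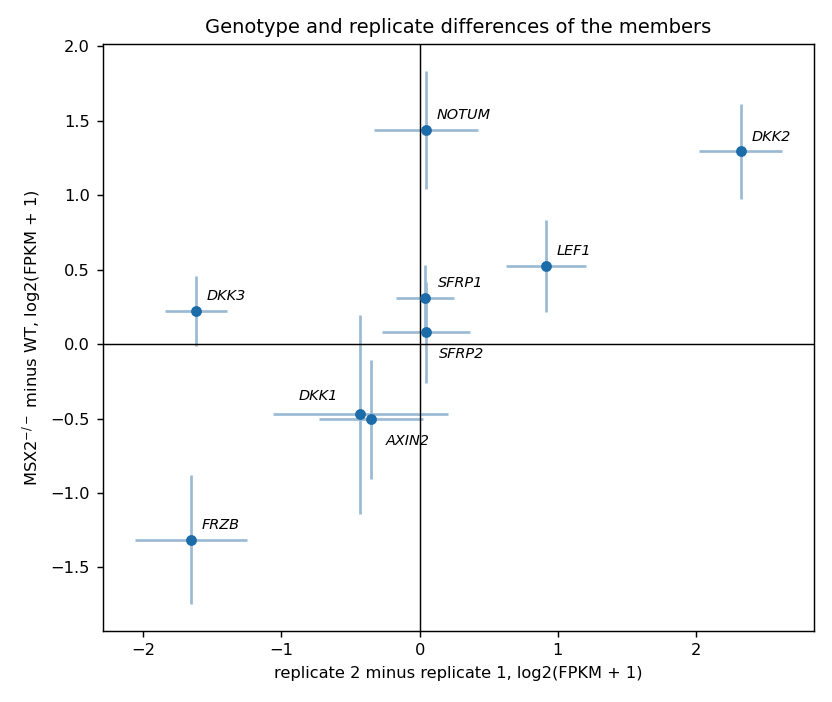
Difference of MSX2-/- from WT (vertical axis, fit with the replicate block) against the difference of replicate 2 from replicate 1 (horizontal axis) for the 9 measured members, both in log2(FPKM + 1), with 95% intervals as bars. NOTUM, at 1.44 and 0.05, lies far from 0 on the vertical axis and near 0 on the horizontal one, whereas DKK2, at 1.29 and 2.32, and FRZB, at -1.31 and -1.65, differ on both axes.

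Patterns over the 6 libraries were compared between genes as a description. Points share libraries, genotype and replicate number, so such values are high for many gene pairs. Among the members, DKK2 and LEF1 had r = 0.99 on the log2(FPKM + 1) scale, DKK2 and FRZB -0.97, FRZB and LEF1 -0.95, and FRZB and AXIN2 0.90. Of 9541 candidate genes outside the members, those most like NOTUM were ESM1, ELN and NXF3 (r from 0.995 to 0.998). Those most like DKK2 were GTPBP8, ZYX and SF3B5, most like FRZB were TMEM14A, NUDT14 and H6PD, most like DKK3 were PPARD, FGD1 and MTA1, and most like LEF1 were LARP1, TIMM21 and RAP1B. AXIN2 was closest to HSPA12B, MMP25 and KIAA1841, DKK1 to CCDC115, MIGA2 and RNF24, SFRP1 to AHCY, FAM122B and RPL39, and SFRP2 to USMG5, BLOC1S4 and AL391244.1.

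The rest of the WNT pathway was followed through 85 genes, of which 84 had a row under their symbol (TBXT did not) and 62 were tested. Without the block, 1 was higher (FZD5) and 0 were lower. With the block, 11 were higher and 6 lower, beside 6.11% and 3.74% of all tested genes. The median log2 difference of the 62 was 0.05, and 35 were above 0. Across replicate numbers, 10 of the 62 were higher and 20 lower in replicate 2, beside 15.6% and 18.9% of all tested genes.

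Ligands were sparse. Of 24 WNT and R-spondin type genes, 9 were tested and 4 were at 0 in all libraries. With the block 2 were higher and 0 lower, beside 6.11% and 3.74% of all tested genes. WNT11, which acts mainly outside the β-catenin branch, was 5.55 and 8.87 FPKM in WT, 17.2 and 22.0 in clone 1#, and 16.7 and 26.4 in clone 2#. The groups did not overlap, and the log2 difference of 1.40 (SE 0.10 with the block) had adjusted p = 0.00163 with the block and 0.0638 without it. WNT9B was 1.69 and 0.358 FPKM in WT and 1.44 to 6.95 in MSX2-/-, a log2 difference of 1.32 (adjusted p = 0.0122 with the block, 0.436 without).

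Among 18 tested receptors and co-receptors, 4 were higher and 3 lower with the block, again beside 6.11% and 3.74% of all tested genes. FZD5, a Frizzled receptor, was 1.28 and 1.46 FPKM in WT, 5.11 and 8.29 in clone 1#, and 5.61 and 8.43 in clone 2#. It rose by 1.70 on the log2 scale (SE 0.24), with an adjusted p of 0.0322 without the block and 0.00214 with it. With the block, FZD2 (0.86), the co-receptor LRP5 (0.87) and the R-spondin receptor LGR4 (0.75) also rose, and FZD4 (-0.64), FZD8 (-0.67) and the non-canonical receptor ROR1 (-0.52) fell, with adjusted p from 0.00884 to 0.0451.

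Of 11 other antagonists and inhibitors tested, 2 were higher with the block and 0 lower, beside 6.11% and 3.74% of all tested genes. SFRP5, a further SFRP paralog, was 11.2 and 29.1 FPKM in WT, 30.1 and 54.8 in clone 1#, and 48.4 and 49.7 in clone 2#. Every MSX2-/- library was above both WT libraries, and the log2 difference of 1.25 had adjusted p = 0.0311 with the block and 0.261 without it. NKD2, which inhibits Dishevelled, differed by 0.68 (adjusted p = 0.0336 with the block). Its paralog NKD1, a feedback gene of the canonical branch singled out after its values were seen, was 0.802 and 1.59 FPKM in WT, 1.41 and 8.74 in clone 1#, and 2.61 and 10.6 in clone 2#, and did not pass.

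Of 18 intracellular components tested, 1 was higher and 3 were lower with the block, beside 6.11% and 3.74% of all tested genes. CTNNBIP1, which blocks β-catenin from binding TCF factors, was 65.1 and 36.9 FPKM in WT, 31.4 and 22.4 in clone 1#, and 33.5 and 21.3 in clone 2#. It fell with the block by 0.86 on the log2 scale (adjusted p = 0.00407, and 0.291 without the block). The co-repressor TLE1 (-0.78) and the mostly repressive factor TCF7L1 (-0.44) fell with the block, and DVL1, a Dishevelled gene, rose by 0.27. Of 4 tested target genes, 2 were higher with the block, beside the same 6.11% of all tested genes. CCND1, which encodes cyclin D, was 48.2 and 136 FPKM in WT, 91.2 and 187 in clone 1#, and 78.5 and 217 in clone 2#, a log2 difference of 0.68 (adjusted p = 0.0133 with the block, 0.758 without). TNFRSF19 differed by 1.22 (adjusted p = 0.0111 with the block, 0.0759 without).

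**Figure D4:**
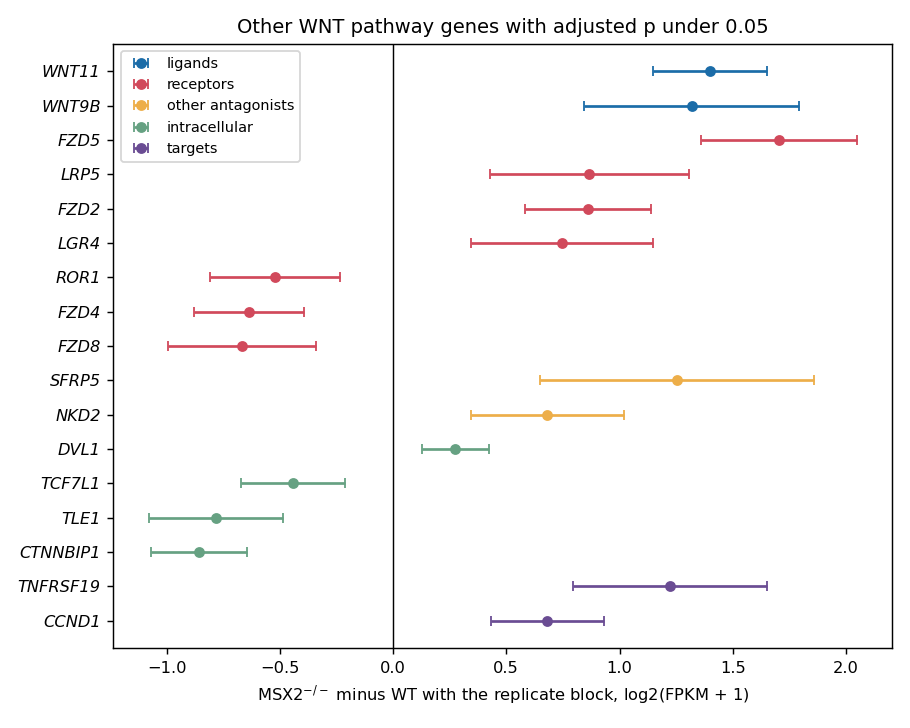
Difference of MSX2-/- from WT in log2(FPKM + 1), with 95% intervals from the fit with the replicate block, for the 17 other WNT pathway genes with an adjusted p under 0.05 in either fit, coloured by role. The 11 genes right of 0 include FZD5 at 1.70 and WNT11 at 1.40, and the 6 left of 0 include CTNNBIP1 at -0.86.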

How the data were processed

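RNA-seq values of 2 WT and 4 MSX2-/- libraries were used as deposited. The authors deposited FPKM per gene symbol, not pooled over replicates. The submitters' notes name BWA, Bowtie, RSEM and hg19, and the series' text names TopHat and Cufflinks, so which tools made the table is unclear. Versions, annotation and use of strand are not given in the sources used here. Of the rows, 1 without values was left out. The columns name the clones 1# and 2#, the sample titles use other numbers, and the columns' names are used.

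Tests used limma 3.58.1 in R 4.3.3 with moderated variances and their trend with level, applied to log2(FPKM + 1) of genes averaging 0.5 FPKM or more, with Benjamini-Hochberg adjustment over all 15895 genes and a threshold of 0.05. A test of counts was not possible. The fit was tested on simulated data. MSX2-/- was compared with WT without a block. A block for replicate number served as the alternative, and the numbers pair the libraries through the labels' set letters (correlations of replicate differences 0.51, 0.54 and 0.64). Relative depth was read from genes of low FPKM. Other alternatives were a pseudocount of 0.1, no filter, rescaled libraries, no trend, summed rows, 3 groups, each clone alone and leaving out each library. Blocked fits with a left-out library, no filter, a pseudocount of 0.1 or rescaling were chosen after seeing the data.

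The members and gene lists were chosen with earlier results of these data known. Named were all members, MSX2, listed WNT genes with an adjusted p under 0.05 in either fit, and the 3 genes most like each tested member (Pearson r, mean of at least 5 FPKM). Of the blood markers listed, 1 is not reported here. SOST and NKD1 were singled out after their values were seen. Promoter sequences are from RefSeq (GRCh38.p14), with 5 members matched, and positions from GENCODE 29 by symbol.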

Additional observations from a re-analysis of the deposited data

Results flagged for a closer look

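SOST, which encodes the secreted LRP5/6 antagonist sclerostin and is outside the 10 members, was 75.0 FPKM in WT replicate 1 and 31.5 and 33.6 in the clones of that number, but 43.7 in WT replicate 2 and 55.1 and 56.8 in the clones of that number. Both clones were below WT in replicate 1 and above it in replicate 2, and that opposite direction is what singled it out. The interaction of genotype and replicate number was 1.53 on the log2(FPKM + 1) scale (SE 0.12) and did not pass after adjustment over all genes in limma (adjusted p = 0.130). The difference between genotypes without the block was -0.41 (adjusted p = 0.748).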

How the results depend on the processing

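NOTUM was higher in MSX2-/- in every fit run. Without the block it passed with a pseudocount of 0.1, rescaled libraries, no trend and summed rows, and 0 members were higher with no filter (adjusted p of NOTUM 0.0761), in the fit of 3 groups (0.102), in clone 1# alone (0.262), in clone 2# alone (0.455) and in every fit without 1 library. The replicate block gave 2 members higher and 1 lower, 971 genes higher and 595 lower, against 153 and 51 without it. It gave 3 members and 550 genes called in clone 1# and 3 and 590 in clone 2#, and changed no other call of a member. With the block, leaving out 1 library gave 2 to 3 members higher and 0 to 1 lower. The block with no filter gave 2 higher and 0 lower (adjusted p of FRZB 0.0629). With a pseudocount of 0.1 the block gave 3 (LEF1 among them, adjusted p = 0.0493) and 1, and with rescaled libraries 2 and 1. Over all genes, 65 were higher with no filter, 4 higher and 2 lower with 3 groups, 0 and 0 in clone 1# alone, 0 and 1 in clone 2# alone, and 33 lower with no trend, and the fits without 1 library gave 14 to 59 higher and 5 to 28 lower. SFRP2 turned to -0.00502 in clone 1# alone, and DKK3 ran from -0.62 to 1.06 over the unblocked fits without 1 library and from 0.17 to 0.28 over the blocked ones. Beyond the fewer libraries or more genes of some settings, the cause was not tested. The read depth is unknown, so no detection limit can be given for WIF1 or the low values of DKK1.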
